A study of Mus musculus with 24 samples.

Results

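Some RNAs of mammalian cells carry a nucleotide metabolite instead of the usual methylguanosine cap at their 5′ end. The present account concerns which kinds of liver RNA were richer or poorer in libraries made from such RNAs than in libraries made from all capped RNAs, in the 6 libraries labelled 3C of a series of 24. The 6 libraries were chosen by their labels and fall into 2 groups of 3: all-capped RNA, called input by the labels, and RNA captured for a noncanonical initiating nucleotide (NCIN) cap. Both groups came from polyadenylated liver RNA of male C57BL/6 mice aged 2 months, with no genotype or treatment named, and both carried added fly RNA and synthetic spike-in RNAs. The series holds 3 further pairs of groups of the same build, namely set 3D (2 months), a group described only as young (2 months) and an old group (18 months). The labels do not say how sets 3C and 3D differ, although their count tables list different spike-in RNAs, nor whether the 3 libraries of a group came from separate animals, so that p-values measure the spread between libraries.

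NAD and dephospho-coenzyme A can be built into an RNA as its first nucleotide when transcription starts, in place of ATP. An RNA with such a cap therefore begins with an adenosine. NAD caps occur on nuclear and mitochondrial transcripts of mammals, and decapping enzymes such as DXO and some Nudix hydrolases remove them. The liver makes most plasma proteins and carries a dense mitochondrial and drug-metabolising machinery, so that a small number of genes accounts for much of its mRNA.

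The libraries held 14473996 to 16993760 counts each, of which 9741115 to 14426495 fell on mouse genes. Fly genes took 6.60 to 7.35% of all counts in the all-capped libraries and 29.7 to 38.1% in the captured ones. The 100 most abundant genes of each library took 55.3 to 56.6% of mouse counts in the all-capped libraries and 50.8 to 51.6% in the captured ones. All 12 hepatocyte markers were measured, and albumin alone stood at 71787 CPM (counts scaled to a common library size) in the all-capped libraries (SD 4060, n = 3). Markers of other cells were present at lower levels, with medians of 64.5 CPM for 12 Kupffer cell markers and 82.1 for 5 red blood cell markers.

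Of 11156 mouse genes with enough counts, 4167 (37.4%) were higher in the captured libraries and 3838 (34.4%) were lower, by edgeR's quasi-likelihood test at an adjusted p under 0.05. For 8415 genes (75.4%) the 3 captured values lay all above or all below the 3 all-capped values. "Higher" and "lower" here are relative to the bulk of mouse genes, since the counts were scaled so that most genes balance. The scaling sets the zero point: the median gene stood at a log2 fold change of 0.10 here, at 3.15 when the spike-in without NAD set the scale, at 2.16 with all spike-ins, at 0.95 with the library size alone and at -1.80 when fly genes set the scale. Among called genes, 52.1% were higher here, against 98.9%, 93.8%, 74.3% and 3.42% under those scalings in the same order. Levels of gene groups are therefore given as medians minus the median of all tested genes ("relative median"), a quantity that a change of scaling leaves almost untouched.

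The spike-ins give a reference for that scale. The RNA that carried no NAD had 1236, 1208 and 1472 counts in the all-capped libraries and 255, 189 and 200 in the captured ones, and stood at a log2 ratio of -2.82, -3.47 and -3.13 relative to the median gene. The RNA of which 5% carried NAD stood at -1.36, -1.83 and -1.68, and that with 5% dephospho-coenzyme A at -1.34, -1.69 and -1.53. The spike-in without NAD was thus the lowest of the 3 spike-ins in each captured library. Of the tested genes, 424 (3.80%) lay below the mean of the 0% NAD spike-in, 1656 (14.8%) between the 0% and the 5% NAD spike-ins, and 9076 (81.4%) above both. Tested against the 0% NAD spike-in in edgeR, 10029 genes (89.9%) were higher and 116 (1.04%) lower.

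**Figure D1:**
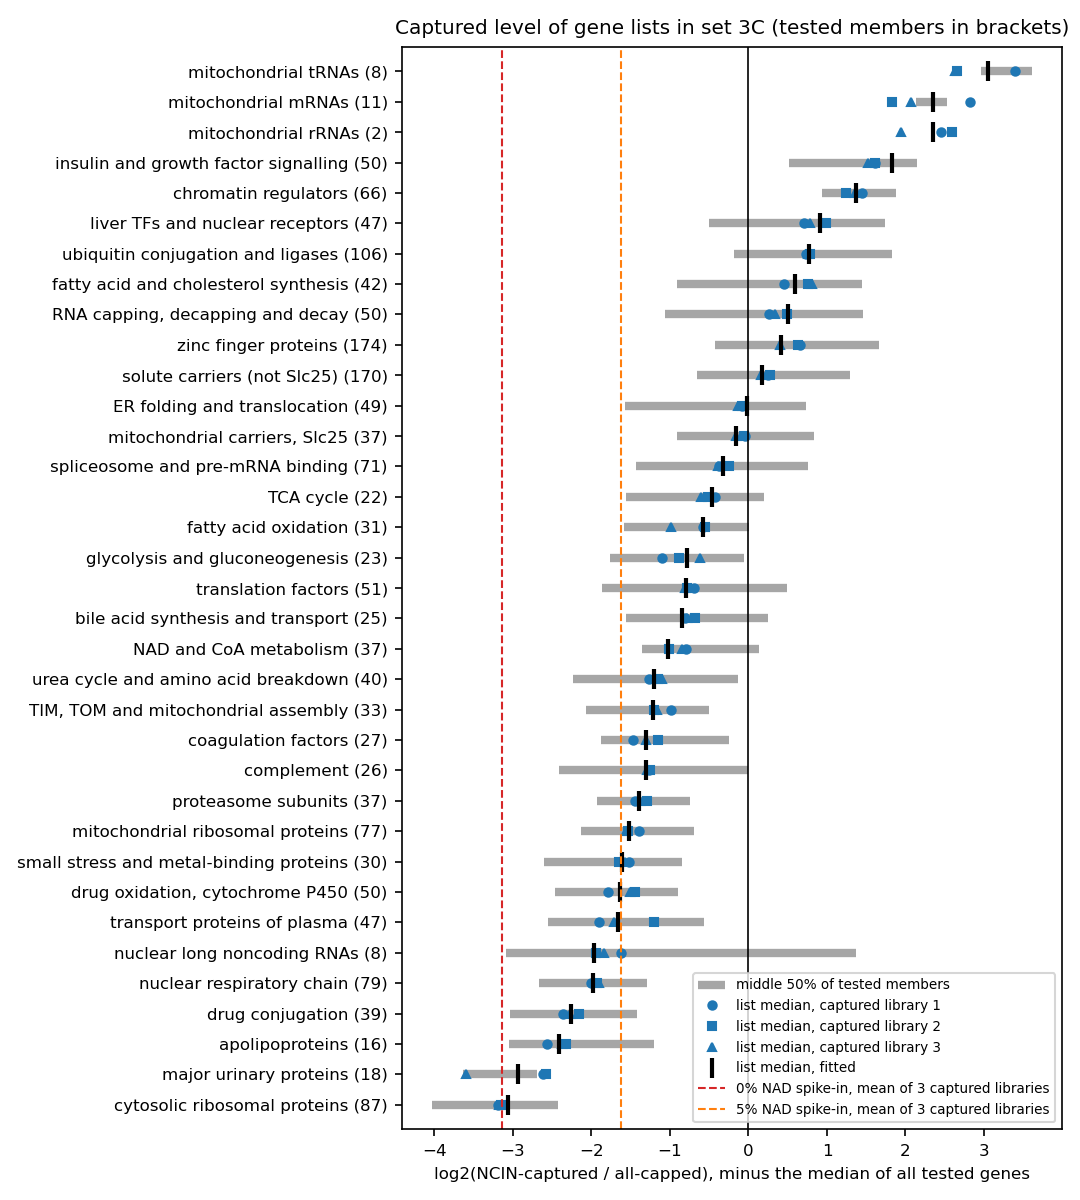
Relative captured level of 35 gene lists in set 3C. The x axis is the log2 ratio of captured to all-capped level minus the median of all tested genes; grey bars span the middle 50% of tested members, blue symbols are the list medians in each captured library against the mean of the all-capped ones, black marks are fitted medians, and dashed lines are spike-in means. Transcripts of the mitochondrial genome lie farthest to the right, and cytosolic ribosomal proteins lie at the level of the 0% NAD spike-in.

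Transcripts of the mitochondrial genome were the most enriched of the 35 lists of function. Of 13 mitochondrial mRNAs 11 had enough counts and all 11 rose, at a relative median of 2.36 and at 2.82, 1.83 and 2.08 in the 3 captured libraries. Both mitochondrial rRNAs and all 8 tested mitochondrial tRNAs of 22 rose too, at relative medians of 2.35 and 3.05. mt-Co1, a catalytic subunit of cytochrome c oxidase, stood in CPM at 2563, 2516 and 1908 in the all-capped libraries and 14341, 16322 and 15821 in the captured libraries. The captured values were all above the all-capped ones (log2 fold change 2.73 ± 0.15 (SE), edgeR adjusted p = 7.80e-08). mt-Nd5, a complex I subunit, stood at 607, 1600 and 499 in the all-capped libraries and 17126, 3750 and 4279 in the captured libraries. Captured library 1 was far above the other 2 captured libraries for mt-Nd5, which gave it the widest spread of the abundant mitochondrial mRNAs (log2 fold change 3.22 ± 0.62 (SE), edgeR adjusted p = 7.66e-04).

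The other mitochondrial mRNAs rose by log2 fold changes between 2.06 for mt-Co3 and 3.80 for mt-Nd3. The groups overlapped for mt-Nd3, which was counted far below mt-Co1. It stood at 3.56, 11.4 and 1.36 in the all-capped libraries and 157, 62.2 and 7.86 in the captured libraries. Among the complex I subunits, mt-Nd1 had a log2 fold change of 2.46, mt-Nd2 of 2.48, mt-Nd4 of 2.21 and mt-Nd6 of 2.43. mt-Cytb, the complex III cytochrome b, had a log2 fold change of 2.26. mt-Co2 (1.50 CPM in the all-capped libraries), mt-Co3 (1.63) and mt-Atp6 (1.38) were counted far below mt-Co1, and these 3 genes have near-identical nuclear copies, so their levels are uncertain. Some of these rises rest on 1 library for their size, though not for their call: relative to the median gene, without captured library 1 mt-Nd5 stood at 2.06, mt-Nd3 at 2.61, mt-Nd6 at 1.35 and mt-Tp, a proline tRNA, at 2.57, and without all-capped library 2 at 3.74, 4.75, 2.96 and 6.20, against 3.11, 3.69, 2.33 and 3.91 with all 6 (mt-Tp also 3.32 without all-capped library 3). As a group the mitochondrial mRNAs took 0.566, 0.706 and 0.440% of mouse counts in the all-capped libraries and 8.17, 5.19 and 5.39% in the captured libraries. Among the mitochondrial tRNAs, mt-Tp stood at 0.562, 5.31 and 0.195 in the all-capped libraries and 72.8, 17.4 and 7.93 in the captured libraries, and mt-Tq at 2.997, 7.05 and 5.55 in the all-capped libraries and 74.7, 73.1 and 51.1 in the captured libraries. tRNA genes lie between and against the mRNA genes on the mitochondrial genome, so their counts may hold reads of neighbouring transcripts, and whether strand was used is not given in the sources used here.

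Nuclear genes for the same respiratory chain went the other way. Of 79 tested members 1 rose and 74 fell, at a relative median of -1.98 (-2.01, -1.93 and -1.90 in the 3 captured libraries). All 12 tested nuclear subunits of complex IV and all 9 of complex III fell, at relative medians of -2.60 and -2.17. In complex I 36 of 37 fell (median -1.96), and in the ATP synthase 14 of 16 (-1.65). Uqcrh, the small hinge subunit of complex III, stood at 441, 463 and 454 in the all-capped libraries and 22.3, 22.9 and 22.03 in the captured libraries. It fell 20.2-fold with no overlap (log2 fold change -4.34 ± 0.11 (SE), edgeR adjusted p = 3.15e-09). Complex II, which the mitochondrial genome does not encode, was split: Sdha, its catalytic subunit, was the 1 gene of the list that rose (log2 fold change 0.88), and Sdhc, a membrane anchor, fell (log2 fold change -2.49). Atp5b, the ATP synthase beta subunit and the most counted member, stood at 1511, 2088 and 1482 in the all-capped libraries and 1633, 1615 and 1605 in the captured libraries, groups that overlapped and a difference that did not pass the test (adjusted p = 0.684 in edgeR).

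**Figure D2:**
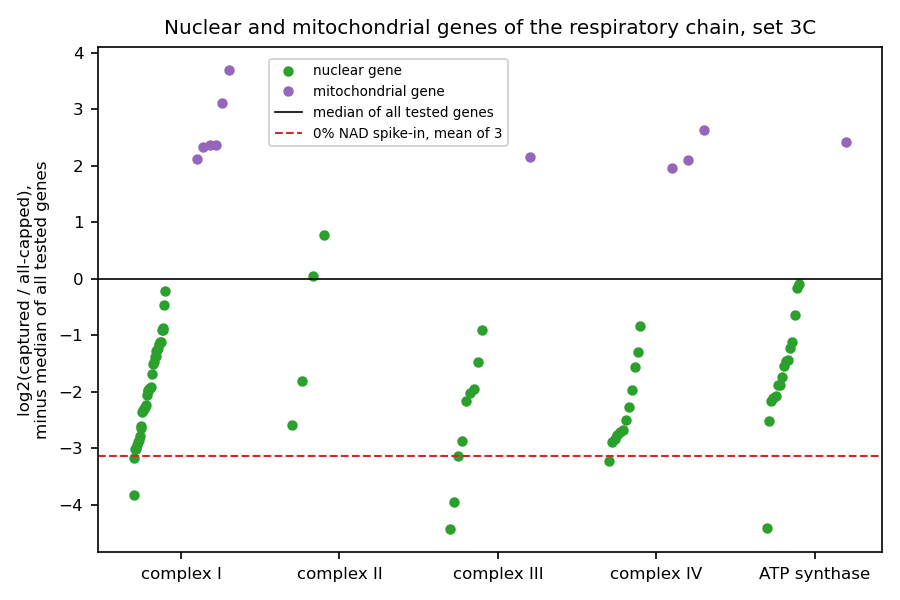
Each point is 1 tested gene of the respiratory chain, with the log2 ratio of captured to all-capped level minus the median of all tested genes on the y axis and the complex on the x axis. All 11 mitochondrial genes lie above 0, and all nuclear genes except 2 of complex II lie below it.

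Other assemblies of nuclear-encoded mitochondrial proteins were low as well. Among mitochondrial ribosomal proteins 64 of 77 fell and 1 rose (relative median -1.53), with the large and the small subunit at -1.52 and -1.53. The lowest of them, Mrps34, stood at 78.9, 74.9 and 98.3 in the all-capped libraries and 3.66, 5.92 and 5.01 in the captured libraries, and Mrps35 was the 1 member that rose (log2 fold change 0.43), a call lost without any of 4 of the 6 libraries (relative log2 0.22 to 0.35; all-capped 1 or 3, captured 1 or 2). Of the import and assembly factors, 23 of 33 fell and 2 rose. Chchd2, a small intermembrane-space protein, fell 12.2-fold, and Tomm70a, a receptor of the outer-membrane import pore, rose 2.54-fold. Soluble mitochondrial enzymes and carriers were more mixed: in the TCA cycle 6 of 22 rose and 11 fell, in fatty acid oxidation 6 of 31 rose and 17 fell, and among the Slc25 carriers of the inner membrane 12 of 37 rose and 11 fell, with relative medians of -0.46, -0.57 and -0.16. Ogdh, the oxoglutarate dehydrogenase, rose (log2 fold change 1.03), while Idh3g, a regulatory isocitrate dehydrogenase subunit, fell (-2.76).

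Cytosolic ribosomal proteins were the lowest of the 35 lists of function. Of 87 tested, 86 fell and none rose, at a relative median of -3.07 and at -3.19, -3.15 and -3.17 in the 3 captured libraries, close to the -3.14 ± 0.33 (SD, n = 3) of the 0% NAD spike-in. Against that spike-in, 27 of the 87 were higher, 25 lower and 35 not called, where 89.9% of all genes were higher and 1.04% lower. Small-subunit proteins had a relative median of -3.54 (34 of 34 fell), and large-subunit proteins -2.87 (52 of 53). Rps2, the most counted, stood at 2446, 2387 and 2739 in the all-capped libraries and 118, 138 and 127 in the captured libraries, a 19.7-fold fall without overlap (log2 fold change -4.30 ± 0.13 (SE), edgeR adjusted p = 4.11e-09). Rpl23a fell most (log2 fold change -5.02 ± 0.14 (SE), edgeR adjusted p = 3.43e-09). The list took 2.97, 3.03 and 3.06% of mouse counts in the all-capped libraries and 0.695, 0.737 and 0.708% in the captured libraries. Ribosomal protein genes have many processed pseudogenes, so reads may be split between copies.

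The rest of the translation apparatus was less uniform. Among translation factors 14 of 51 rose and 30 fell (relative median -0.79), with 5 of 6 elongation factors lower. Eef1a1, which delivers aminoacyl-tRNA to the ribosome and was the most counted, fell 8.44-fold, and Eif3b, a scaffold subunit of initiation factor 3, rose 5.50-fold. Eif3b stood at 7.49, 9.37 and 7.88 in the all-capped libraries and 44.4, 41.2 and 50.8 in the captured libraries, so that neither group overlapped the other. In protein turnover, 31 of 37 proteasome subunits fell and 1 rose (relative median -1.39). All 17 core subunits fell, and of the regulatory particle 14 of 20 fell and Psmd2 rose (log2 fold change 0.55). Factors of folding and translocation at the endoplasmic reticulum stood near the typical gene, at -0.02, but covered a wide range, since 19 of 49 rose and 23 fell. The 2 homologous lectin chaperones lay on opposite sides: membrane-bound calnexin (Canx) stood at 90.6, 98.9 and 70.1 in the all-capped libraries and 653, 393 and 405 in the captured libraries, and soluble calreticulin (Calr) at 3331, 3074 and 3675 in the all-capped libraries and 845, 1039 and 1130 in the captured libraries. Canx rose 5.59-fold and Calr fell 3.34-fold.

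mRNAs of secreted liver proteins were mostly under-captured. Over the 5 lists of plasma transport proteins, apolipoproteins, coagulation factors, complement and major urinary proteins, 105 of 134 tested genes fell and 17 rose, at a relative median of -1.75 (-1.89, -1.58 and -1.76 in the 3 captured libraries). Alb, which encodes albumin and was the most counted gene of the list, stood at 76109, 68053 and 71198 in the all-capped libraries and 19880, 20642 and 21307 in the captured libraries. The 2 groups were far apart, and the fall was 3.48-fold (log2 fold change -1.80 ± 0.12 (SE), edgeR adjusted p = 3.87e-07). Among the transport proteins Orm2, an acute-phase glycoprotein, fell most (23.4-fold), and Pzp, a large protease inhibitor, rose most (2.92-fold).

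Within the apolipoproteins 13 of 16 fell and 1 rose, at a relative median of -2.41. Apoc3, an inhibitor of lipoprotein lipase, stood at 4106, 4418 and 5509 in the all-capped libraries and 363, 387 and 369 in the captured libraries. Apob, the very long structural protein of VLDL particles, was the 1 member that rose, at 26.1, 24.2 and 24.0 in the all-capped libraries and 71.3, 57.6 and 71.8 in the captured libraries. Apoe, a ligand for lipoprotein receptors, fell less than most (log2 fold change -0.94). Coagulation factors fell in 19 of 27 cases and rose in 6 (median -1.31): Serpinc1, which encodes antithrombin, fell 4.42-fold, and F5, a cofactor of prothrombin activation, rose 3.77-fold. Complement had 18 of 26 genes lower and 6 higher (-1.31). C3, the central component, stood at 885, 996 and 853 in the all-capped libraries and 4194, 4361 and 3984 in the captured libraries, a 4.59-fold rise, while Vtn, an inhibitor of the terminal complex, fell 8.07-fold. All 18 tested major urinary protein genes, which encode pheromone carriers of near-identical sequence, fell (median -2.94). Their reads cannot be safely assigned to single copies. Mup3 stood at 6171, 6207 and 3775 in the all-capped libraries and 861, 1049 and 739 in the captured libraries.

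Enzymes of drug metabolism were low. Of 50 tested cytochrome P450 genes 40 fell and 3 rose (relative median -1.64). Family 2, the largest, stood at -2.11 (28 of 33 fell) and family 4 at -1.42 (8 of 11). Cyp2e1, which oxidises ethanol, stood at 32780, 33188 and 33355 in the all-capped libraries and 8601, 11364 and 9466 in the captured libraries. Cyp2d40 fell most (16.7-fold) and Cyp4f17 rose most (5.34-fold). Of 39 conjugating enzymes 33 fell and 3 rose (-2.26), with glutathione transferases lowest at -2.75 (17 of 19 fell), then sulfotransferases at -2.18 and glucuronosyltransferases at -1.79. Mgst1, a membrane-bound glutathione transferase, stood at 10996, 10147 and 11807 in the all-capped libraries and 1002, 1052 and 1100 in the captured libraries. P450, Ugt and Gst genes form families of close paralogs, and single members are uncertain to that extent. Small stress and metal-binding proteins showed 24 of 30 members lower and 1 higher (-1.61). Gpx1, a peroxidase that clears hydrogen peroxide, stood at 19592, 19135 and 22459 in the all-capped libraries and 959, 1017 and 981 in the captured libraries and fell 20.7-fold. Mt1, a metallothionein, fell 21.9-fold.

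Pathways of intermediary metabolism differed from each other. In the urea cycle and amino acid breakdown 26 of 40 fell and 8 rose (relative median -1.21), but 2 of its abundant urea cycle genes rose. Cps1, the entry enzyme, stood at 330.1, 422 and 397 in the all-capped libraries and 1278, 1496 and 1609 in the captured libraries, and Ass1, argininosuccinate synthase, at 3035, 3967 and 4542 in the all-capped libraries and 7120, 5937 and 8007 in the captured libraries, with no overlap for either. Bckdha, of branched-chain keto acid oxidation, fell 10.8-fold. In glycolysis and gluconeogenesis 14 of 23 fell and 5 rose (-0.78): Tpi1, triose phosphate isomerase, fell 12.4-fold, and Gbe1, the glycogen branching enzyme, rose 2.25-fold. In bile acid synthesis and transport 14 of 25 fell and 6 rose (-0.85).

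Synthesis of fatty acids and cholesterol was the metabolic list above the typical gene, with 22 of 42 genes higher and 11 lower, at a relative median of 0.59 (0.46, 0.75 and 0.81 in the 3 captured libraries). The list took 0.322, 0.399 and 0.425% of mouse counts in the all-capped libraries and 1.16, 1.16 and 1.57% in the captured libraries, and no captured library overlapped an all-capped one. Scd1, the main desaturase, stood at 707, 584 and 1333 in the all-capped libraries and 2518, 1954 and 4692 in the captured libraries (log2 fold change 1.80 ± 0.35 (SE), edgeR adjusted p = 8.63e-04). Insig1, which holds the sterol sensor in the endoplasmic reticulum, rose 6.61-fold, and Thrsp, an activator of lipogenesis, fell 3.37-fold.

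The genes that make NAD and coenzyme A, the 2 metabolites used as caps, were themselves mostly low: 21 of 37 fell and 8 rose, at a relative median of -1.03. Tdo2, which opens the tryptophan route to NAD, stood at 1609, 1510 and 1473 in the all-capped libraries and 237, 274 and 257 in the captured libraries, and Pank2, a pantothenate kinase of coenzyme A synthesis, at 0.187, 1.64 and 1.36 in the all-capped libraries and 8.20, 6.81 and 6.55 in the captured libraries. Tdo2 fell 5.98-fold and Pank2 rose 6.74-fold. Enzymes of capping, decapping and RNA decay split, with 21 of 50 higher and 19 lower (0.50). The 2 named members that fell are Nudix hydrolases, Nudt7 (4.77-fold) and Nudt2 (6.61-fold), and Pan3, a subunit of a poly(A) nuclease, rose 8.27-fold. Spliceosome and pre-mRNA-binding proteins were near the middle, at -0.33, with 21 of 71 higher and 29 lower.

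Lists of regulatory genes other than zinc fingers formed the high end among nuclear genes. The 174 zinc finger genes stood at a relative median of 0.41, below lipid synthesis (0.59) and capping, decapping and decay enzymes (0.50). Over transcription factors, chromatin regulators, signalling, ubiquitin and zinc finger lists, 251 of 443 tested genes rose and 55 fell, at a relative median of 1.02 (0.96, 0.97 and 0.84 in the 3 captured libraries). Chromatin regulators rose in 54 of 66 cases and fell in 2 (median 1.37). Nsd3, a histone H3 methyltransferase, stood at 36.7, 41.7 and 37.6 in the all-capped libraries and 274, 126 and 154 in the captured libraries, and Kdm3b, a histone demethylase, at 1.69, 1.06 and 0.681 in the all-capped libraries and 13.3, 9.62 and 6.86 in the captured libraries. In both the captured values were several times the all-capped ones, 4.77-fold and 8.57-fold in the fit. Hdac1, a histone deacetylase, fell (log2 fold change -0.80). Insulin and growth factor signalling had 38 of 50 genes higher and 2 lower (1.82). Sos1, which loads Ras with GTP, rose 6.46-fold, and Prlr, the prolactin receptor, fell 1.69-fold. Gcgr, the glucagon receptor and the most counted member, stood at 418, 399 and 391 in the all-capped libraries and 415, 373 and 397 in the captured libraries, which overlapped and did not pass the test (edgeR adjusted p = 0.813).

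Among liver transcription factors and nuclear receptors 26 of 47 rose and 11 fell (median 0.91). Hnf4a, a master regulator of hepatocyte genes, stood at 36.6, 37.7 and 42.5 in the all-capped libraries and 217, 226 and 249 in the captured libraries (log2 fold change 2.57 ± 0.12 (SE), edgeR adjusted p = 3.84e-08). Atf4, a short stress-induced factor, stood at 172, 209 and 183 in the all-capped libraries and 17.6, 20.6 and 17.3 in the captured libraries and fell 10.2-fold. Hnf4a and Atf4 thus lay on opposite sides of the typical gene. Ubiquitin conjugating enzymes and ligases rose in 62 of 106 cases and fell in 19 (0.78), with Ube2h, a conjugating enzyme, up 8.14-fold and Ube2e1 down 8.47-fold (relative log2 -3.19, and -3.90 without captured library 3). Of 174 zinc finger genes 71 rose and 21 fell (0.41), and of 170 solute carriers outside the Slc25 family 71 rose and 44 fell (0.17). Over all tested genes 37.4% rose and 34.4% fell. The zinc finger and solute carrier lists thus rose only a little more often than all tested genes, and fell less often. Zfp36, which directs AU-rich mRNAs to decay and was the most counted gene of the zinc finger list, fell 4.80-fold.

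Markers of other cell types were also mostly low. All 5 tested red blood cell markers fell (relative median -4.18), with Hbb-bt, a beta globin, at 25.1, 25.3 and 20.6 in the all-capped libraries and 1.10, 0.573 and 0.231 in the captured libraries. Of 12 Kupffer cell or macrophage markers 10 fell and none rose (-1.88), and C1qa, a chain of complement C1q, stood at 195, 228 and 271 in the all-capped libraries and 23.1, 26.8 and 27.0 in the captured libraries. Liver endothelial markers were spread on both sides, 5 of 12 higher and 4 lower (-0.11). Hepatocyte markers had 4 of 12 higher and 8 lower (-1.42), where Ttr, a thyroxine carrier, fell 17.9-fold. In bulk RNA a marker's level reflects both the number of cells and the RNA per cell, which cannot be told apart, although both groups here were drawn from the same kind of tissue. By annotated type, 193 pseudogenes had a relative median of -2.62 (148 lower, 8 higher) and 259 long noncoding RNAs -1.82 (162 lower, 28 higher), against 0.06 for 10419 protein-coding genes. The types also differed in median distance from gene start to end (0.713, 7.42 and 23.0 kb) and in median level (1.81, 2.20 and 9.71 CPM), in that order. An effect of type apart from these was not tested. Tug1, a long noncoding RNA, ran against its type at 7.12, 8.60 and 3.99 in the all-capped libraries and 93.8, 53.1 and 59.1 in the captured libraries, a 10.4-fold rise.

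Shares of all mouse counts give the lists on a scale without fitted scaling, where the most counted members weigh most. On this scale a ratio of 1 is not the level of the typical gene, since the median gene stood at a log2 fold change of 0.95 with library size alone. The ratio of the captured to the all-capped mean share was 10.95 for mitochondrial mRNAs, 4.82 for chromatin regulators, 0.236 for cytosolic ribosomal proteins and 0.311 for major urinary proteins. Plasma transport proteins, of which 37 of 47 fell, still took 24.6, 23.5 and 23.9% of mouse counts in the all-capped libraries and 21.3, 22.6 and 22.03% in the captured libraries. Complement took 1.90, 1.84 and 1.84% of mouse counts in the all-capped libraries and 1.77, 1.99 and 1.90% in the captured libraries and so overlapped, although 18 of its 26 genes fell. For 9 of 43 lists the share ratio lay on one side of 1 and the relative median on the other side of 0. As these 2 reference points differ, a share ratio a little above 1 beside a negative relative median is no conflict in itself. Capping, decapping and decay enzymes had a share ratio of 0.726 with a relative median of 0.50, nuclear long noncoding RNAs 2.01 with -1.97, Slc25 carriers 1.50 with -0.16, spliceosome genes 1.41 with -0.33 and ER folding factors 1.36 with -0.02. The other 4 were complement, the TCA cycle, the urea cycle list and liver endothelial markers, with share ratios of 1.01 to 1.06. For 38 of 43 lists the 3 captured shares lay all above or all below the 3 all-capped ones, which gives an exact permutation p of 0.1, two-sided, the smallest that 3 against 3 libraries can give.

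**Figure D3:**
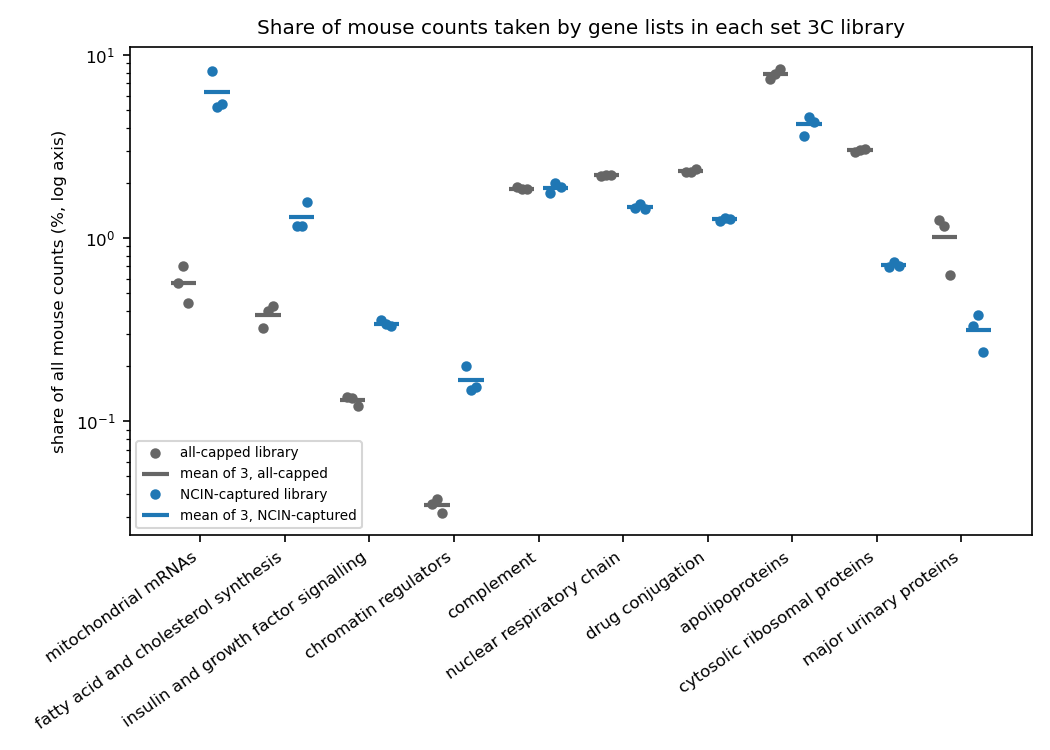
Share of all mouse counts taken by 10 gene lists in each of the 6 libraries (y axis in percent, log scale). Grey points are all-capped and blue points NCIN-captured libraries, and bars are means of 3. The groups do not overlap except for complement, which took 1.84 to 1.90% of mouse counts in the all-capped and 1.77 to 1.99% in the captured libraries.

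Abundance, gene span and the base composition of the promoter each graded the captured level, but for abundance the direction depended on which libraries set the classes. These 3 ways of dividing genes describe all tested or all protein-coding genes, and the last 2 were chosen after results of these data had been seen. By mean level over the 6 libraries, the relative median was 0.28 in class 1 of 10, which holds the least abundant genes, 0.49 in classes 3 and 4 and -1.18 in class 10, where 17.5% were higher and 68.3% lower. The direction of the abundance gradient depends on how abundance is measured. With classes from the all-capped libraries alone, classes 1 and 10 stood at 1.94 and -1.55, and with classes from the captured libraries alone at -1.65 and -0.29, because the same values then set the class and the ratio.

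Gene span is the distance from the start to the end of a gene, introns included, in the RefSeq annotation of mouse build GRCm38.p6. Across 5 equal classes of 10419 protein-coding genes from the shortest (up to 7.92 kb) to the longest (65.0 kb and more), the relative median rose in steps from -1.23 through -0.41, 0.02 and 0.75 to 1.27. In the shortest class 12.9% of genes were higher and 62.7% lower, and in the longest 64.2% and 11.7%. The gradient held within abundance: among the most abundant of 5 classes of protein-coding genes the relative median went from -1.69 in the shortest to 0.44 in the longest genes, and among the least abundant from -0.73 to 1.26. Across genes, which are not independent replicates, Spearman's rho with the log2 fold change was 0.473 for span (n = 10419), 0.349 for promoter CG count (n = 8409) and -0.283 for mean level (n = 10419).

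**Figure D4:**
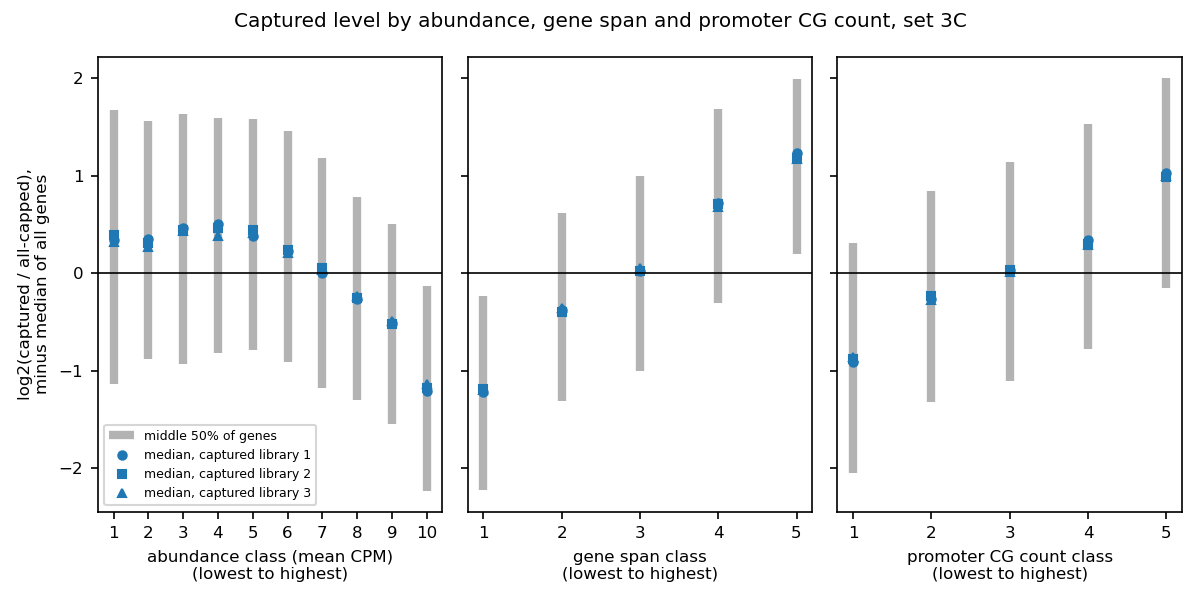
Relative captured level (y axis, log2 ratio minus the median of all tested genes) by 10 classes of mean level, 5 of gene span and 5 of promoter CG count. Grey bars span the middle 50% of genes in a class and blue symbols are its medians in the 3 captured libraries, which almost coincide. Levels fall over the upper classes of abundance and climb with span and with CG count.

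Within a span class some gene lists stood apart from the other genes and others stood near them. Span was not equal within a class. The shortest class ran from 0.374 to 7.92 kb with a median of 4.51 kb, where the 87 tested ribosomal protein genes had a median of 3.14 kb. In the shortest class, 80 ribosomal protein genes had a relative median of -3.13, 17 major urinary protein genes -3.003, 12 apolipoprotein genes -2.64 and 46 nuclear respiratory chain genes -1.97, against -1.10 for 1639 genes in no list. In the same class 40 mitochondrial ribosomal protein genes stood at -1.20, close to the unlisted genes, 6 coagulation factor genes at -0.47 and 27 zinc finger genes at 0.37. In the longest class, where all genes together stood at 1.27, 22 signalling genes stood at 2.00, 16 transcription factors at 1.85 and 6 bile acid genes at -0.33. Nearer to 1.27 were 39 chromatin regulators (1.42), 16 zinc finger genes (1.37), 9 capping, decapping and decay genes (1.45) and 7 lipid synthesis genes (1.16). Ubiquitin genes (35) stood at 1.64, solute carriers (34) at 0.77 and complement genes (5) at 0.73. Of 59 secreted protein genes in the shortest class 1 rose and 54 fell, and of 9 in the longest class 5 rose and 4 fell. In the 3 classes between, from shorter to longer, 22 of 33, 12 of 16 and 13 of 17 fell. Their relative medians there were -0.90, -1.84 and -1.04, against -0.41, 0.02 and 0.75 for all genes of those classes. Over all genes of the longest class, 64.2% rose and 11.7% fell. The secreted genes that rose and were named with those lists, Pzp (43.2 kb), Apob (39.2 kb), F5 (68.4 kb) and C3 (24.2 kb), all exceed the 10.0 kb median span of the 134 secreted protein genes. Of those named there that fell, Alb (15.7 kb) and Serpinc1 (24.0 kb) exceed it too. Orm2 (3.43 kb), Apoc3 (2.59 kb), Apoe (5.07 kb), Vtn (3.21 kb) and Mup3 (3.84 kb), which also fell, do not. Of the largest falls of these lists that were not named there, Cpb2 of the coagulation factors (41.3 kb, log2 fold change -2.53) exceeds that median. Cfb of complement (6.14 kb) and Mup18 (3.96 kb) do not.

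The count of the dinucleotide CG (both strands read the same) in the 250 bases before the RefSeq start was the third graded feature, for the 8409 protein-coding genes (80.7%) with a promoter entry. From the class with the fewest CG (0 to 8) to that with the most (24 to 56), the relative median climbed from -0.91 through -0.24, 0.05 and 0.32 to 1.04. Both gradients were seen together: genes of the shortest class ranged from -1.94 with the fewest CG to -0.48 with the most, and those of the longest class from 0.52 to 1.81. The following 8 stretches of 150 bases just before the start show the range, each for the most counted gene of its list that changed in the list's direction and has a single start, a choice made after the values were seen. They read 5′ to 3′ on the gene's strand, with every CG in capitals, from RefSeq build GRCm38.p6.
Alb, chr5:90460720-90460869, plus strand: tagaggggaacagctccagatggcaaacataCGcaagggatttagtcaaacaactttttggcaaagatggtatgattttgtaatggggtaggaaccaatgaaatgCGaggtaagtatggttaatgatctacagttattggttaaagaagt
Apoa1, chr9:46228480-46228629, plus strand: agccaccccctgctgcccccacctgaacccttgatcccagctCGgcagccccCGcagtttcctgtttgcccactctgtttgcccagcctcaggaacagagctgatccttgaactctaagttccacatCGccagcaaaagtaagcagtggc
Gstp1, chr19:4037913-4038062, minus strand: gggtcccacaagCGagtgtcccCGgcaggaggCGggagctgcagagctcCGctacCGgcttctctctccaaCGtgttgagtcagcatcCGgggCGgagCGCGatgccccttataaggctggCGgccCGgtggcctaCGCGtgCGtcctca
Rps2, chr17:24719913-24720062, plus strand: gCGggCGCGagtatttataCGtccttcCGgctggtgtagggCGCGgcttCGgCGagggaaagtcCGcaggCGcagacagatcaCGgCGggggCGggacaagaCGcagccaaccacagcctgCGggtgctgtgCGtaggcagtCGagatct
Cox6a1, chr5:115348959-115349108, minus strand: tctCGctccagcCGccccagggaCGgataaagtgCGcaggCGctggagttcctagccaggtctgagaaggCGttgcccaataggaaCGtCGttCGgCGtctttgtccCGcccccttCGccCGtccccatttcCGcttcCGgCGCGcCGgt
Egfr, chr11:16752053-16752202, plus strand: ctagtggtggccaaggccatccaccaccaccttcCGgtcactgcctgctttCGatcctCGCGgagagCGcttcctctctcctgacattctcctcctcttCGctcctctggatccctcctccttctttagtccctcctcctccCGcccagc
Foxa3, chr7:19023540-19023689, minus strand: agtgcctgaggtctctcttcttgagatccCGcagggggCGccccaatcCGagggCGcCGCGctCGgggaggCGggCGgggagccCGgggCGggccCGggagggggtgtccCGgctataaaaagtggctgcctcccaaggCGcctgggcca
Brd3, chr2:27475399-27475548, minus strand: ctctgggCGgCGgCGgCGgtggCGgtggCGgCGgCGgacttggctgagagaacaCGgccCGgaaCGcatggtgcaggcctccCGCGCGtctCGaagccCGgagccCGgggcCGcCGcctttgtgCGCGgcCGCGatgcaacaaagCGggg

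Among the promoters of genes that fell, those of the secreted proteins Alb and Apoa1 hold 2 and 3 CG in the printed stretch, and those of Gstp1, a glutathione transferase, Rps2 and Cox6a1 hold 15, 18 and 18. Among those that rose, Egfr, a growth factor receptor, holds 7, Foxa3 14 and Brd3 24. Gstp1, Rps2 and Cox6a1 thus fell with more CG than Egfr, which rose, so that single genes ran against the gradient. The log2 fold changes of the 8 were -1.80 for Alb, -2.45 for Apoa1, -2.64 for Gstp1, -4.30 for Rps2, -2.67 for Cox6a1, 0.59 for Egfr, 2.40 for Foxa3 and 0.47 for Brd3.

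An NAD cap requires an adenosine at the first position, but the annotated first base did not mark the enriched genes. Genes whose first listed RefSeq start is A had a relative median of -0.13 (n = 2411; 35.8% higher, 37.3% lower), against 0.05 for C (n = 1255), 0.18 for G (n = 3970) and -0.08 for T (n = 773). Within the 5 CG classes, from fewest to most, the A group stood at -1.09, -0.17, -0.01, 0.17 and 1.15 and the G group at -0.75, -0.23, 0.16, 0.36 and 1.11, so that A was above G in 2 classes and below it in 3. Annotated starts are not starts measured in these libraries, and many genes start over a window of bases. The letters TATAAA, searched on the gene's strand from 40 to 16 bases before the start and found in 2.22% of 27025 promoters, occurred in 112 tested genes with a relative median of -0.76, against 0.05 for the 8297 without them. The genes with these letters also had a shorter median span (10.8 against 23.1 kb) and fewer CG (a median of 8 against 16). Whether the letters mattered apart from span and CG was not tested.

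Ranked over all genes with a mean of at least 50 counts and groups that did not overlap, the 10 largest falls held 5 ribosomal protein genes or their copies (Rpl23a, Rps15a, Rpl35, Rps12 and Rpl22l1), the pseudogene Rps12-ps3, Hbb-bt, Mup18, Crip1 and Dbi. Dbi, a short protein that binds acyl-coenzyme A, stood at 1499, 1408 and 1666 in the all-capped libraries and 49.4, 48.5 and 55.0 in the captured libraries. Rps12-ps3 had 299 counts over the all-capped libraries and 3 over the captured ones, a ratio of 135 with an exact 95% interval of 45.7 to 657 that covers counting error only, and its reads cannot be told from those of Rps12 (relative log2 -6.99, and -7.71 without captured library 2). The 10 largest rises held 3 mitochondrial tRNAs (mt-Tp, mt-Tm and mt-Tq), 3 genes known only by number (ENSMUSG00000118504, Gm48582 and Gm43189), and Mfsd4a, Tmem170b, Tacc1 and Cavin1. Tacc1, a coiled-coil protein of the mitotic centrosome, stood at 34.0, 34.3 and 28.6 in the all-capped libraries and 583, 282 and 397 in the captured libraries, and Cavin1, which coats caveolae, at 3.09, 2.13 and 3.70 in the all-capped libraries and 57.6, 23.6 and 32.7 in the captured libraries. Besides mt-Tp and Rps12-ps3, 3 of these 20 genes moved by over 1.5 times when 1 library was left out: Mfsd4a (relative log2 4.03; 5.54 and 3.41 without all-capped library 2 or 3, 3.34 without captured library 1), Gm43189 (3.76; 4.88 without all-capped library 1, 2.48 without captured library 1) and Crip1 (-5.23; -6.17 without captured library 2). Their lower group had a mean of 0.448 CPM (Mfsd4a, all-capped), 3.40 (Gm43189, all-capped) and 0.294 (Crip1, captured). Tacc1 rose 13.01-fold and Cavin1 12.7-fold.

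Set 3D and the young group, both also of 2 months, allow the same lists to be read in other libraries. There, 35.5% (set 3D, 10822 genes tested) and 35.3% (young group, 11515) of genes passed the test as higher and 31.5% and 32.4% as lower. The relative median of cytosolic ribosomal proteins was -3.22 in set 3D (83 of 85 fell) and -3.05 in the young group (84 of 85), that of apolipoproteins -2.48 and -2.40, and that of the nuclear respiratory chain -2.28 and -2.39. Chromatin regulators stood at 2.24 and 1.37, and mitochondrial mRNAs at 2.71 and 2.70. Major urinary proteins stood at -2.50 and -1.87 against -2.94 in set 3C, and P450 genes at -1.56 and -0.91 against -1.64.

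**Figure D5:**
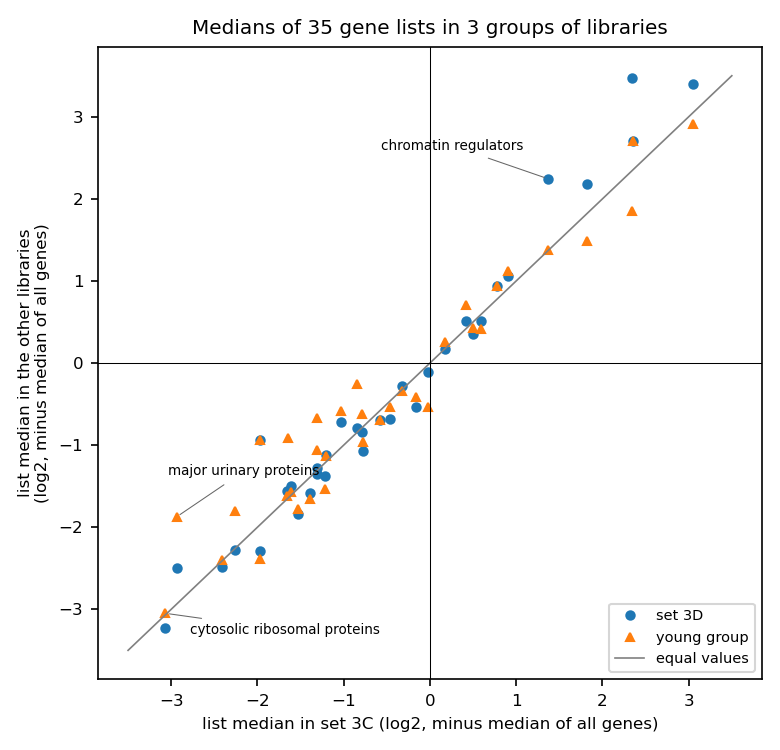
Relative medians of 35 gene lists in set 3C (x axis) against set 3D (circles) and the young group (triangles) on the y axis, all as log2 ratios minus the median of all tested genes of that set. The line marks equal values; chromatin regulators lie above it in set 3D (2.24 against 1.37), and major urinary proteins lie above it in the young group (-1.87 against -2.94).

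The difference between sets 3C and 3D was tested gene by gene as an interaction in edgeR. Of 12164 genes, 50 (0.411%) had a more positive captured effect in set 3C and 23 (0.189%) a more negative one. The nuclear respiratory chain held 7 of the 50, the mitochondrial ribosomal proteins 3, the cytosolic ribosomal proteins 2, the urea cycle and amino acid list 2, and every other list 0 or 1. These counts were 398 and 290 with the replicate number within each set as a block. They also rest on single libraries: they were 130 and 85 without captured library 3 of set 3D, 88 and 118 without captured library 1 of set 3C, and 1 and 0 without captured library 3 of set 3C. At the level of lists, chromatin regulators had a median interaction of -0.61, with 0 of 67 genes called, and the nuclear respiratory chain one of 0.33.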

How the data were processed

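The authors deposited raw read counts per gene, in separate tables for set 3C, for set 3D and for the young and old groups, each with fly genes and spike-ins and with whole-number values. Per the submitters' processing notes, reads were trimmed with Trim Galore 0.6.6, aligned with STAR 2.7.6a to GRCm39 and BDGP6 and counted with featureCounts 2.0.1; Salmon is named too, without version or role. Strand use and handling of multiply mapped reads are not given in the sources used here. Per the labels' protocols, RNA was extracted with RNAiso Plus.

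Mouse counts were tested in R 4.3.3 with edgeR 4.0.16 (TMM scaling, filterByExpr, quasi-likelihood test, Benjamini-Hochberg adjustment over 11156 genes), captured against all-capped, 3 against 3, without a block. All 18 libraries of sets 3C and 3D and the young group served comparisons; interactions used sets 3C and 3D. Values per library are TMM-scaled CPM, and SE are those of the fit. Intervals cover counting error only, since reads carried no molecular identifiers. The fit was tested on simulated data. DESeq2 1.42.0, 5 other scalings, other filters, a replicate block and each library left out were tried.

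Gene lists and members were chosen with earlier results of these data known, and subgroups, unions, span, CG and first-base classes were added after the data were seen. Of each list with at least 5 tested members, the most counted gene and the largest called rise and fall (mean of at least 50 counts, groups not overlapping) were eligible to be named, all mitochondrial mRNAs, and 10 rises and 10 falls over all genes. Symbols matched 52083 of 55416 mouse gene IDs, and 10930 of 11156 tested genes matched RefSeq. Protein lengths were not used here.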

Additional observations from a re-analysis of the deposited data

Results flagged for a closer look

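The following 6 genes were picked out because their captured effect differed between sets 3C and 3D in the interaction test. They are the 3 largest differences in each direction among called genes with a mean of at least 50 counts. Values are CPM, and differences are log2 effects in set 3C minus set 3D.

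More positive in set 3C were Ptov1, Rnpepl1 and Usf1. Ptov1 differed by 2.45 ± 0.38 (SE; edgeR adjusted p = 0.0154) and stood at 3.98, 5.62 and 3.80 (all-capped) and 15.8, 10.8 and 14.4 (captured) in set 3C, and 17.2, 29.8 and 28.0 and 10.6, 13.1 and 18.2 in set 3D. Its captured values overlapped between the sets, and its all-capped values were higher in set 3D. Rnpepl1, an aminopeptidase-like gene, differed by 2.33 ± 0.32 (SE; edgeR adjusted p = 0.0132) and stood at 8.76, 13.9 and 12.4 (all-capped) and 47.0, 52.1 and 61.6 (captured) in set 3C, and 61.2, 99.1 and 97.7 and 61.4, 81.6 and 92.9 in set 3D. Its all-capped values were far higher in set 3D, and its captured values were higher there too, with a narrow overlap. Usf1, an E-box transcription factor, differed by 2.26 ± 0.41 (SE; edgeR adjusted p = 0.0265) and stood at 5.93, 5.62 and 7.69 (all-capped) and 3.03, 4.91 and 3.64 (captured) in set 3C, and 8.56, 9.62 and 8.36 and 1.15, 1.07 and 1.09 in set 3D. For Usf1 it was the captured values that were lower in set 3D.

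More negative in set 3C were Rps25, Zmat2 and Kdelr2. Rps25, a ribosomal protein, differed by -2.80 ± 0.47 (SE; edgeR adjusted p = 0.0179) and stood at 312, 283 and 309.9 (all-capped) and 82.7, 34.9 and 29.2 (captured) in set 3C, and 280.1, 302 and 269 and 469, 291 and 198 in set 3D. Zmat2, a zinc finger protein of the spliceosome, differed by -2.58 ± 0.49 (SE; edgeR adjusted p = 0.0311) and stood at 16.2, 17.1 and 16.8 (all-capped) and 11.3, 6.30 and 3.95 (captured) in set 3C, and 19.7, 16.7 and 12.9 and 66.3, 32.2 and 28.1 in set 3D. Kdelr2, a receptor that returns proteins to the endoplasmic reticulum, differed by -2.15 ± 0.42 (SE; edgeR adjusted p = 0.0311) and stood at 222, 205 and 264 (all-capped) and 695, 251 and 307 (captured) in set 3C, and 319, 394 and 339 and 3787, 2580 and 2107 in set 3D. In all 3 the captured values of set 3D lay above those of set 3C, with captured library 1 the highest of its group in both sets. No call of the 6 was kept in every fit that left out 1 library: differences ranged from 2.29 to 2.66 for Ptov1, 2.16 to 2.52 for Rnpepl1 and 2.05 to 2.41 for Usf1, and from -3.40 to -2.40 for Rps25, -3.05 to -2.08 for Zmat2 and -2.73 to -1.88 for Kdelr2.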

How the results depend on the processing

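The number of genes called in each direction followed the scaling and little else. Against 4167 higher and 3838 lower, library size alone gave 6311 and 2184, the 0% NAD spike-in 10029 and 116, all spike-ins 8676 and 574, and fly genes 273 and 7698. DESeq2, median-gene scaling, both other filters, a 2-fold minimum and each left-out library (3846 to 4198 higher, 3625 to 3878 lower) stayed within 1.5 times. Same-numbered libraries deviated together weakly in set 3C (correlations of deviations 0.150, 0.089 and 0.185) and more in set 3D (0.355, 0.106 and 0.302), and in both sets every library correlated best with its own number, a hint of pairing from the data that the labels do not state. The replicate block gave 4247 and 3913 for set 3C.

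Interaction counts, 50 and 23, were 136 and 155 with DESeq2, 167 and 30 with library size, 156 and 204 without a filter, and 398 and 290 with the replicate block. With 1 library left out they ranged from 1 to 130 and from 0 to 118. The cause was not tested.

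List medians kept their sign except that ER folding moved from -0.02 to 0.040 and nuclear long noncoding RNAs from -1.97 to 0.88 where every library needed 10 counts, which leaves fewer genes. That filter also gave 3.71 for mitochondrial tRNAs, -1.82 for the nuclear respiratory chain, -2.27 for apolipoproteins, -1.13 for complement and 1.53 for signalling. Without a filter the respiratory chain stood at -1.90, apolipoproteins at -2.18, complement at -1.23 and cytosolic ribosomal proteins at -2.99; the last stood at -3.09, -3.10 and -3.09 with the 0% NAD, total spike-in and fly scalings and at -3.09 with the block. With 1 library left out, the ranges were 1.27 to 1.496 for chromatin regulators, -1.41 to -1.25 for complement, -3.21 to -3.00 for cytosolic ribosomal proteins, 1.63 to 1.82 for signalling, -2.10 to -1.94 for the respiratory chain, 2.02 to 2.59 for mitochondrial mRNAs and 2.78 to 3.47 for mitochondrial tRNAs. Abundance classes from all-capped libraries alone gave 1.94 and -1.55 for classes 1 and 10, and from captured libraries alone -1.65 and -0.29. With all counts as the denominator the complement share ratio was 0.723.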
